A study of Mus musculus with 3 samples.

Results

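The G1/S epithelial cells of expanding cochlear organoids were 256 cells, taken from 1 single-cell library of mouse organoids in expansion medium. A cell belonged to them when it held at least 500 genes, at most 20% of its transcript counts (unique molecular identifiers, UMIs) on mitochondrially encoded genes, at least 4000 UMIs in all, at least 1 UMI of the epithelial adhesion gene Epcam, at least 5 UMIs of Ccne1, Ccne2, Rrm2, Cdc6 and Ung together (the first sum) and under 4 UMIs of Ube2c, Plk1, Cenpf, Aspm and Tpx2 together (the second sum). They were 256 of 14535 Epcam-positive cells of that depth, of 27996 barcodes that passed the gene and mitochondrial limits, and of 50163 barcodes in the series. The transcript counts that chose the cells come from the same library in which the cells are described, so the differences below are descriptions of these cells and carry no test. The 7455 Epcam-positive cells of at least 4000 UMIs outside both sums are called comparison cells here, and the 6824 with at least 4 UMIs of the second sum are called mitotic cells, although transcripts alone do not separate late S phase, G2 and mitosis.

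The organoids were grown in 3D culture from Lgr5+ cochlear progenitor cells of C57BL/6 mice. The expansion group was passage 2 on day 8, in DMEM/F-12 with GlutaMAX, penicillin/streptomycin, N2, B27, EGF at 20 ng/mL, bFGF at 10 ng/mL, IGF at 50 ng/mL with the small molecules CHIR99021 (3 um, as the labels write the unit), Y-27632 (10 um) and LPA (2.5 um). CHIR99021 inhibits the kinase GSK3 and so raises Wnt signalling, Y-27632 inhibits the kinase ROCK, and LPA is a lysophospholipid. The other groups, day 5 and day 25 of differentiation, were grown the same way and then moved to a medium with the growth factors bFGF and BDNF, with Shh and RA, and with A83-01 and, until day 5, LY4115775. Each group was 1 library of sorted living cells, the labels give no number of animals or cultures behind it, and group and library cannot be told apart.

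Cells that have decided to divide pass from G1 into S phase when cyclin D kinases and then cyclin E kinases inactivate the retinoblastoma protein, which frees E2F transcription factors. E2F factors switch on the genes for licensing replication origins, for copying DNA and for making its nucleotides. Genes of G2 and mitosis are switched on later, largely through the MuvB complex with B-MYB and FOXM1 at promoter elements named CHR. In the mature mammalian cochlea the epithelium hardly divides, while Lgr5-positive progenitors taken from young animals divide in culture under Wnt activation.

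Expansion held 29098 barcodes and 207026905 UMIs, day 5 held 14452 and 140255047, and day 25 held 6613 and 76296949. Between 120 and 935 barcodes a library fell under 500 genes, and a further 52 to 229 were over the mitochondrial limit. Doublets called against simulated ones were 10.0086% of passed barcodes in expansion, against 22.3968% expected from the loading, and some doublets may remain. The expansion library shared 133 barcodes with day 5 and 54 with day 25, and 2 of the G1/S cells shared a barcode with day 5. Called doublets made up 36 of the 256 G1/S cells (14.06%, exact 95% interval 10.05 to 18.93), 23.08% of mitotic cells and 14.46% of comparison cells.

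The G1/S cells held 2890525 UMIs, with a median of 9675.5 UMIs and 2870.5 genes a cell. Mitotic cells were deeper at a median of 12295 UMIs, and comparison cells shallower at 6360. A rule on raw counts favours deep cells, and the depth of the cells therefore moves with every comparison below. The mitochondrial share was alike in the groups, at medians of 5.53% in G1/S cells, 5.59% in mitotic cells and 5.86% in comparison cells. No DNA content was measured, so late G1 and early S phase cannot be told apart, and cells of 1 library are not replicates. Levels are CPM, UMIs summed over a group and scaled to a total of 1000000, without correction for gene length, and intervals are exact Poisson 95% intervals that cover counting error only.

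The genes of the first sum set the identity of the cells. Ccne1 (ENSMUSG00000002068, chromosome 7, 38097984 to 38107534 in GRCm38) encodes cyclin E1 and stood at 91.68 CPM (80.97 to 103.4) in G1/S cells, 16.99 CPM in mitotic cells and 15.61 CPM in comparison cells. Ccne2 (ENSMUSG00000028212, chromosome 4, 11191351 to 11204779), its relative cyclin E2, stood at 133.5 CPM (120.5 to 147.5) in G1/S cells, 16.41 CPM in mitotic cells and 19.09 CPM in comparison cells. Both cyclins activate the kinase CDK2 at the entry into S phase, and 206 of the 256 cells held at least 1 UMI of Ccne2, with at most 5 in any cell. Rrm2 (ENSMUSG00000020649, chromosome 12, 24708241 to 24714146), the S phase subunit of ribonucleotide reductase, stood at 144.6 CPM (131.1 to 159.2) in G1/S cells, 28.68 CPM in mitotic cells and 22.98 CPM in comparison cells. Cdc6 (ENSMUSG00000017499, chromosome 11, 98907801 to 98923940), which loads the MCM helicase on origins, was the lowest of these genes at 51.89 CPM (43.92 to 60.89) in G1/S cells, and 110 cells held a UMI of it. Ung, the uracil-DNA glycosylase, stood at 105.5 CPM in G1/S cells, 17.42 CPM in mitotic cells and 22.42 CPM in comparison cells. Epcam itself was no higher in G1/S cells, at 667 CPM in G1/S cells, 676.5 CPM in mitotic cells and 779 CPM in comparison cells.

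The thresholds cut through a continuous range. The median first sum was 5.5 UMIs and the highest 18, and 128 of the 256 cells stood at exactly 5, just inside the limit. Just outside it, 252 cells with a second sum under 4 held 4 UMIs. The levels on both sides were near each other: summed origin licensing genes stood at 1073 CPM in cells with 5 UMIs and 1015 CPM in cells with 4. At the other limit, 59 cells held 3 UMIs of the second sum, just inside, and 35 cells with a first sum of at least 5 held 4. Genes of G2 and mitosis outside the rule summed to 1942 CPM in the first of these and 1870 CPM in the second.

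**Figure D1:**
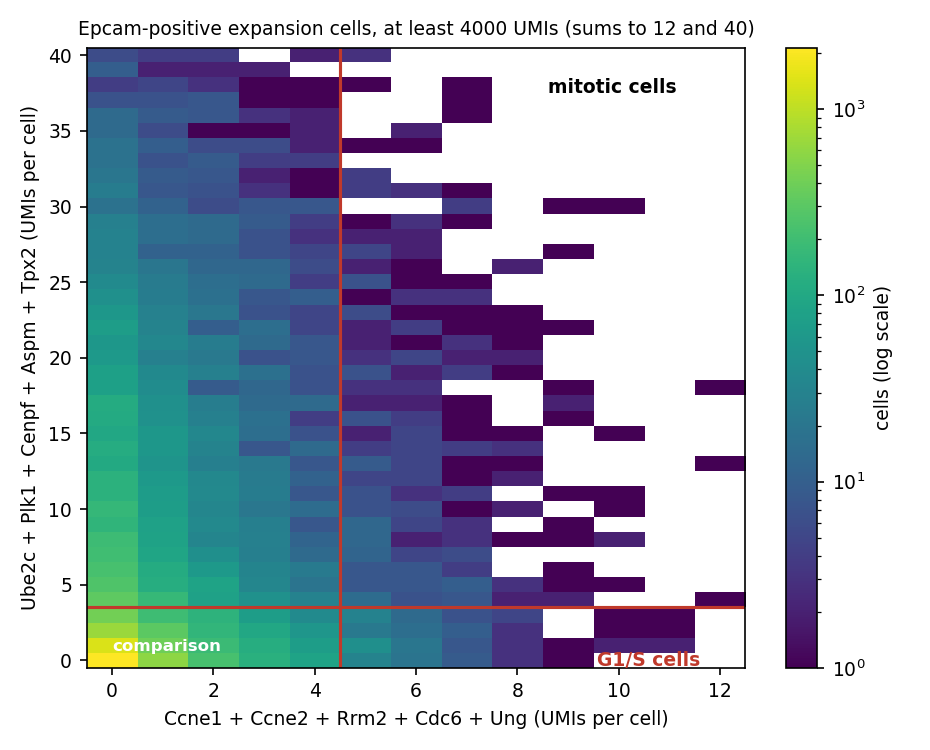
Number of Epcam-positive expansion cells of at least 4000 UMIs at each value of the first sum (x axis, UMIs per cell) and of the second sum (y axis, UMIs per cell), with colour on a log scale and the limits of the rule as red lines. The G1/S cells fill the lower right, mostly at 5 to 7 UMIs, without a gap from the comparison cells at the lower left, and 169 cells beyond 12 or 40 UMIs are not drawn, 1 of them a G1/S cell.

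Of 662 cells with a first sum of at least 5, the 256 G1/S cells were 38.67%, and the other 406 also passed the second limit and were counted as mitotic. The G1/S cells were 1.761% of eligible cells (exact 95% interval 1.554 to 1.988), while mitotic cells were 46.95%. These shares depend on the chosen genes and limits and are not lengths of cell cycle phases: the first sum rests on 5 low transcripts and the second includes abundant Ube2c, at 514.7 CPM in mitotic cells. After every cell was thinned to 4000 UMIs, 18 of the 256 cells (7.031%) held no UMI of the first sum.

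Genes outside the rule were then compared. A gene is called higher or lower here from a 1.5-fold ratio of CPM + 1, among genes of at least 20 CPM in either group, and the 10 rule genes, Epcam and mitochondrially encoded genes were left out. Against comparison cells, 287 of 5540 genes were higher in G1/S cells (5.18%) and 85 were lower (1.53%). Among the 287, 134 reached 20 CPM in G1/S cells alone, a group in which a gene had to be high to be counted, and 153 reached it in both groups. Among the 85, 42 reached it in comparison cells alone, so they could not be called higher, and 43 reached it in both groups. The list counts below share this limit. A listed gene under 20 CPM in the other group was compared only through its level in G1/S cells and could not be called lower. Against comparison cells Cdt1, Mcm10, Clspn, E2f7 and E2f8 are among such genes. With comparison cells weighted to the depth of the G1/S cells, 328 genes were higher and 136 lower. The median log2 ratio over all genes with at least 5 CPM was 0.03.

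Origin licensing genes, which mark and load the places where DNA copying will start, were the list with the highest median. This list and the S phase lists below are not independent of the first sum, which selects on genes of the same phase. Of 16 such genes outside the rule, 13 were compared, 10 were higher in G1/S cells and 0 were lower, and the list's median log2 ratio was 1.20. All 6 subunits of the MCM2 to MCM7 helicase were among the 10. Mcm5 (ENSMUSG00000005410, chromosome 8, 75109569 to 75128439) stood at 103.4 CPM (92.05 to 115.9) in G1/S cells, 42.43 CPM in mitotic cells and 36.2 CPM in comparison cells, a ratio of 2.807 to comparison cells. Mcm6 stood at 150.5 CPM in G1/S cells, 66.58 CPM in mitotic cells and 61.58 CPM in comparison cells. Cdt1, the loading factor that works with CDC6, stood at 40.82 CPM in G1/S cells, 16.96 CPM in mitotic cells and 16.48 CPM in comparison cells. Its inhibitor geminin, encoded by Gmnn, was higher in G1/S cells as well, at 165.4 CPM in G1/S cells, 101.6 CPM in mitotic cells and 71.58 CPM in comparison cells. Mcm10, which helps to start the helicase, had the largest ratio of the list, at 24.56 CPM in G1/S cells, 13.61 CPM in mitotic cells and 7.492 CPM in comparison cells. The origin recognition subunits were uneven: Orc6 was higher at 97.21 CPM in G1/S cells and 50.56 CPM in comparison cells, Orc2 and Orc4 were within 1.5-fold, and Orc1, Orc3 and Orc5 were under 20 CPM in both.

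Genes of the replication fork followed. Of 30 compared, 26 were higher in G1/S cells and 0 were lower, with a median log2 ratio of 1.03. Pcna, the sliding clamp that holds DNA polymerases on the template, stood at 115.9 CPM (103.8 to 129) in G1/S cells, 47.9 CPM in mitotic cells and 45.8 CPM in comparison cells. Lig1, the ligase that joins Okazaki fragments, stood at 162.3 CPM in G1/S cells, 83.82 CPM in mitotic cells and 62.05 CPM in comparison cells. Rpa2, a subunit of the protein that coats single-stranded DNA, stood at 104.1 CPM in G1/S cells, 42.26 CPM in mitotic cells and 40.36 CPM in comparison cells. Dtl, the substrate receptor through which CDT1 is destroyed once DNA copying begins, stood at 81.65 CPM in G1/S cells, 38.2 CPM in mitotic cells and 27.61 CPM in comparison cells. The clamp-binding factor Pclaf was the most abundant of the list, at 525.5 CPM in G1/S cells, 509.2 CPM in mitotic cells and 211 CPM in comparison cells, so it separated G1/S cells from comparison cells and not from mitotic cells. The 4 genes within 1.5-fold were Gins4, Pold2, Rfc2 and Rpa3.

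Nucleotide synthesis gave 15 of 19 compared genes higher and 0 lower, with a median log2 ratio of 0.67. Tyms, the thymidylate synthase, stood at 131.1 CPM in G1/S cells, 91.48 CPM in mitotic cells and 68.8 CPM in comparison cells. The purine pathway genes Gart, Paics, Atic and Impdh2 were the 4 within 1.5-fold. In contrast to Rrm2, the p53-induced subunit Rrm2b was low in all, at 5.881 CPM in G1/S cells, 7.16 CPM in mitotic cells and 8.271 CPM in comparison cells.

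DNA repair and S phase checkpoint genes were higher in 14 of 15 compared, with a median log2 ratio of 1.00, and Brip1 was within 1.5-fold. Clspn, the claspin adaptor that relays a stalled fork to the kinase CHEK1, stood at 55.7 CPM in G1/S cells, 29.95 CPM in mitotic cells and 18.92 CPM in comparison cells. Atad2, a chromatin factor of replicating cells, stood at 140.8 CPM in G1/S cells, 74.05 CPM in mitotic cells and 48.95 CPM in comparison cells. Chromatin assembly and histone genes were higher in 14 of 25 compared, with a median log2 ratio of 0.67. Uhrf1, which brings the DNA methyltransferase DNMT1 to new DNA, stood at 94.45 CPM in G1/S cells, 49.96 CPM in mitotic cells and 34.14 CPM in comparison cells. The linker histone gene Hist1h1b stood at 123.2 CPM in G1/S cells, 111.9 CPM in mitotic cells and 54.49 CPM in comparison cells; replication-dependent histone transcripts mostly lack a poly(A) tail and resemble each other closely, so the levels of the single Hist1 genes are uncertain.

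Regulators of these targets were higher as well. Of 10 compared E2F and pocket protein genes, 7 were higher and 0 lower, with a median log2 ratio of 0.55. E2f1 (ENSMUSG00000027490, chromosome 2, 154559407 to 154569892), an activator of S phase genes and itself an E2F target, had the largest ratio to comparison cells among genes outside the rule with at least 50 CPM in G1/S cells, at 62.96 CPM (54.15 to 72.81) in G1/S cells, 21.98 CPM in mitotic cells and 20.66 CPM in comparison cells, 2.953-fold the level of comparison cells (counting interval 2.593 to 3.564). The E2F family members that repress the same genes in S phase, E2f7 and E2f8, both stood at 25.6 CPM in G1/S cells, against 6.644 and 8 CPM in comparison cells. Fbxo5, the inhibitor of the anaphase-promoting complex that lets S phase cyclins build up, stood at 58.47 CPM in G1/S cells, 46.02 CPM in mitotic cells and 20.68 CPM in comparison cells. The pocket protein genes Rb1, Rbl1 and Rbl2 were under 20 CPM in each group.

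Cyclins, kinases and their inhibitors differed less. Of 12 compared G1 cyclins, kinases and growth response genes, 5 were higher (Ccnd3, Cdk2, Cdc25a, Skp2 and Ccna2) and 0 lower, with a median log2 ratio of 0.45. The main cyclin D gene, Ccnd1, stood at 515.1 CPM in G1/S cells, 458.8 CPM in mitotic cells and 368 CPM in comparison cells, within 1.5-fold, and Ccnd2 at 72.65, 73 and 105.6 CPM in the same order. CDK inhibitors and p53 targets had 0 of 9 compared genes higher and 3 lower, with a median log2 ratio of -0.09. Cdkn1c, which encodes the inhibitor p57 of cells that leave the cycle, stood at 127.3 CPM in G1/S cells, 144.6 CPM in mitotic cells and 220.2 CPM in comparison cells. Btg2, an antiproliferative p53 target, stood at 30.1 CPM in G1/S cells, 40.76 CPM in mitotic cells and 63.04 CPM in comparison cells, and Ccng1 at 8.995, 19.51 and 20.29 CPM in the same order. The inhibitor gene Cdkn1a, also a p53 target, was not lower, at 187.2 CPM in G1/S cells, 137.2 CPM in mitotic cells and 155.4 CPM in comparison cells, and Cdkn1b stood at 37.71, 41.38 and 38.37 CPM in the same order.

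**Figure D2:**
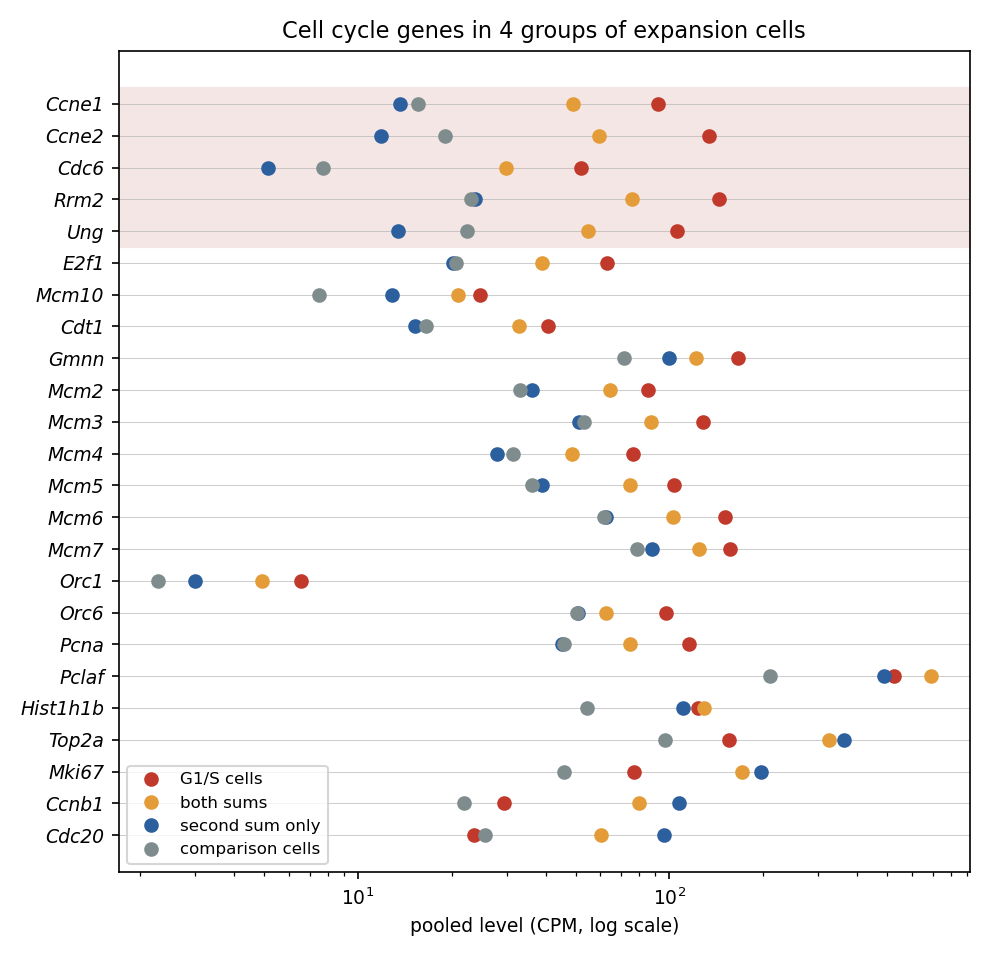
Pooled level (CPM, log scale) of 24 cell cycle genes in G1/S cells, in cells past both limits, in cells past the second limit only and in comparison cells, with the 5 genes of the first sum shaded. Mcm5 runs 103.4, 74.44, 39.07 and 36.2 CPM over these groups, while Ccnb1 runs 29.41, 79.88, 107.1 and 21.93 CPM.

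Genes of G2 and mitosis outside the rule were not at their lowest in G1/S cells. Against comparison cells, 12 of 24 compared were higher in G1/S cells and 0 were lower, with a median log2 ratio of 0.42. These counts were not split by the 20 CPM limit. A gene under it in comparison cells was compared only through G1/S cells and could not be called lower. Those higher included Top2a, the topoisomerase that untangles copied DNA, at 155.3 CPM in G1/S cells, 358.8 CPM in mitotic cells and 96.43 CPM in comparison cells. Mki67 stood at 77.15 CPM in G1/S cells, 193.8 CPM in mitotic cells and 45.7 CPM in comparison cells. The others were Cdk1, Aurkb, Mad2l1, Kif23, Tacc3, Spc25, Sgo1, Pbk, Smc4 and Ncapd2, so they include genes of the spindle checkpoint and of cell division. With membership decided on thinned counts 6 of the 12 lost the call, Mki67 (0.42) and Tacc3 (0.28) among them, and with at least 8 UMIs of the first sum 6 did, with Mki67 (-0.28) and Tacc3 (-0.24) reversed. The 12 within 1.5-fold included Ccnb1, cyclin B1, at 29.41 CPM in G1/S cells and 21.93 CPM in comparison cells, and Cdc20, an activator of the anaphase-promoting complex, at 23.53 CPM in G1/S cells and 25.54 CPM in comparison cells.

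Against mitotic cells, 93 of 5661 genes were higher in G1/S cells (1.64%) and 127 were lower (2.24%), with a median log2 ratio over all genes of -0.03. Of the 93, 43 reached 20 CPM in G1/S cells alone, and of the 127, 73 reached it in mitotic cells alone. Of 45 compared genes of G2 and mitosis, 43 were lower in G1/S cells with a list median of -1.42, and 22 of the 43 were compared only through their level in mitotic cells. The list is not independent of the second sum, which selects on genes of the same phase. Nusap1, which bundles spindle microtubules, stood at 15.91 CPM in G1/S cells and 96.63 CPM in mitotic cells. Cenpa, the centromeric histone H3, stood at 51.55 CPM in G1/S cells and 238.2 CPM in mitotic cells, and Ccnb1 at 29.41 CPM in G1/S cells and 104.5 CPM in mitotic cells. Licensing genes were higher in G1/S cells here too, 10 of 13 compared with 0 lower and a median log2 ratio of 0.83. Fork genes were higher in 14 of 30 and lower in 1, with a median of 0.56. Dbf4, the regulatory subunit of the kinase that fires origins, was that gene, at 38.06 CPM in G1/S cells and 59.24 CPM in mitotic cells. Nucleotide synthesis was higher in 6 of 19 with a median of 0.33, DNA repair in 7 of 15 with a median of 0.29, and chromatin and histones in 6 of 25, with H2afx lower and a median of 0.14. Against mitotic cells licensing genes had the highest median of these 5 lists of S phase genes and histone genes the lowest.

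**Figure D3:**
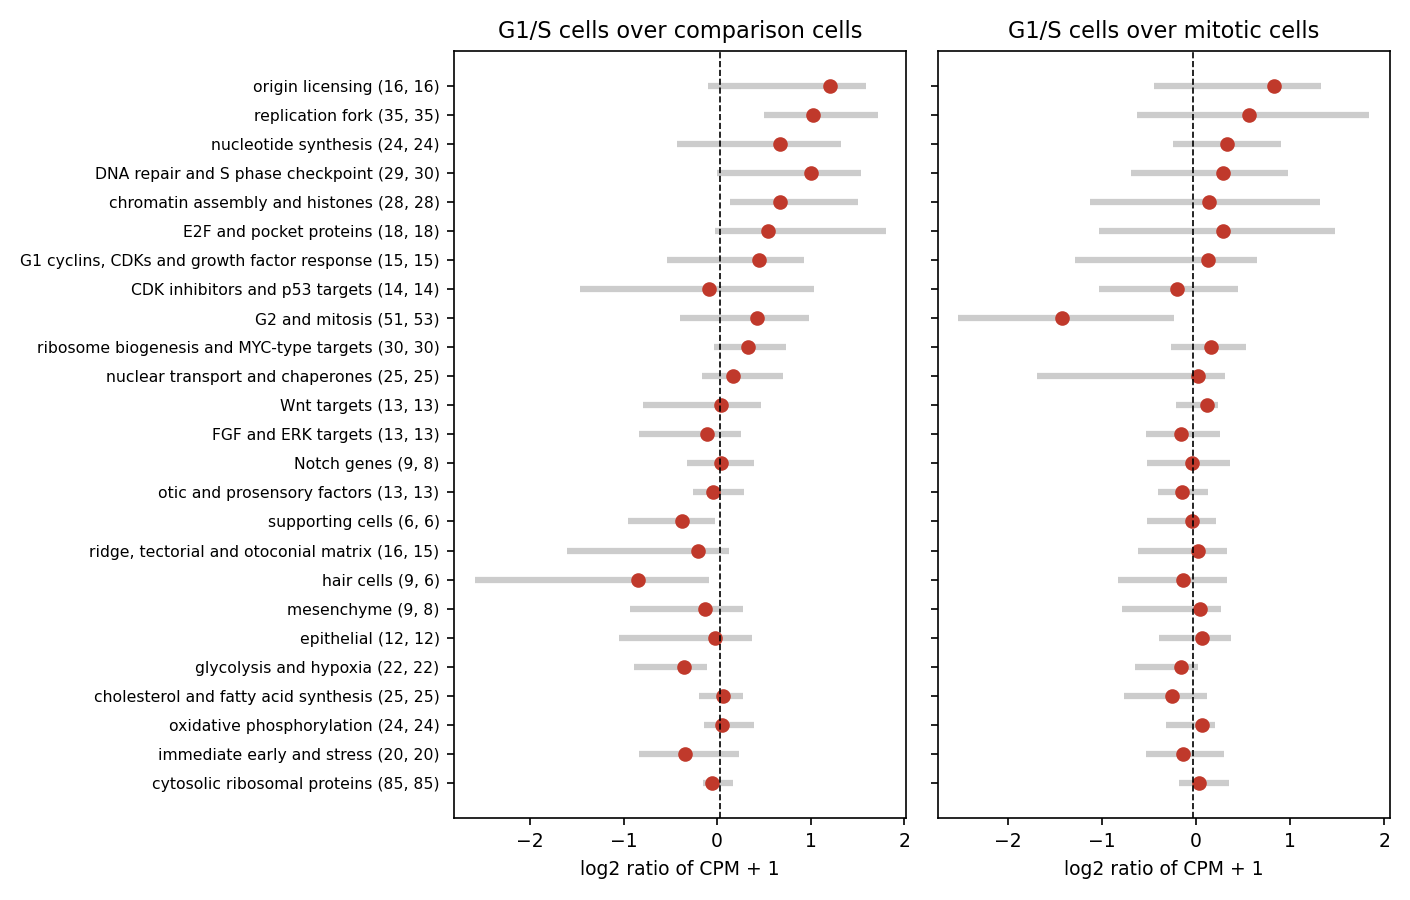
Median log2 ratio of CPM + 1 of each gene list (red points) with the range of its genes (grey bars), for G1/S cells over comparison cells on the left and over mitotic cells on the right. The number of genes with at least 5 CPM in each comparison stands in brackets, and the dashed lines are the medians of all genes, 0.03 and -0.03.

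The 406 cells past both limits stood between the groups for licensing and G2 genes. Licensing genes summed to 1147 CPM in G1/S cells, 858 CPM in cells past both limits, 587.2 CPM in cells past the second limit only and 534.4 CPM in comparison cells. Genes of G2 and mitosis summed to 1665, 3314, 4234 and 1299 CPM in the same order. Fork genes stood at 2380 CPM in G1/S cells and 2195 CPM in cells past both limits, and histone and chromatin genes at 7127 and 8319 CPM in the same order. Cells past both limits were thus near G1/S cells in fork genes and above them in histone genes.

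The difference in licensing genes was visible cell by cell at equal depth. With every cell thinned to 4000 UMIs, G1/S cells held a median of 5 licensing UMIs and at most 15, mitotic cells a median of 2 and at most 13, and comparison cells a median of 2 and at most 16. No licensing UMI was drawn in 5 G1/S cells (1.953%), in 11.47% of mitotic cells and in 21.66% of comparison cells. Fork genes had medians of 10 UMIs in G1/S cells, 6 in mitotic cells and 3 in comparison cells, and genes of G2 and mitosis 6.5, 17 and 4 in the same order. The groups overlapped over most of their range in every list.

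Shares of cells with a UMI ran the same way for single genes. After thinning, E2f1 was found in 23.44% of G1/S cells (18.39 to 29.11), 8.001% of mitotic cells and 7.807% of comparison cells, and without thinning in 50.78%, 23.94% and 14.19% in the same order. Mcm6 was found after thinning in 43.36% of G1/S cells (37.2 to 49.67), 20.47% of mitotic cells and 21.17% of comparison cells. In 259 hair cell-like cells of the same library (median 8362 UMIs), E2f1 was found after thinning in 3.861% and Mcm6 in 14.67%, and in 2210 mesenchyme-like cells (median 5250 UMIs) E2f1 in 8.462% and Mcm6 in 21.18%. Neither type is free of cells with division transcripts: 61 of the hair cell-like cells were among the mitotic cells and 2 among the G1/S cells, and Mki67 stood at 87.24 CPM in hair cell-like and 113.5 CPM in mesenchyme-like cells. The level that free RNA alone gives in these genes was therefore not measured.

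**Figure D4:**
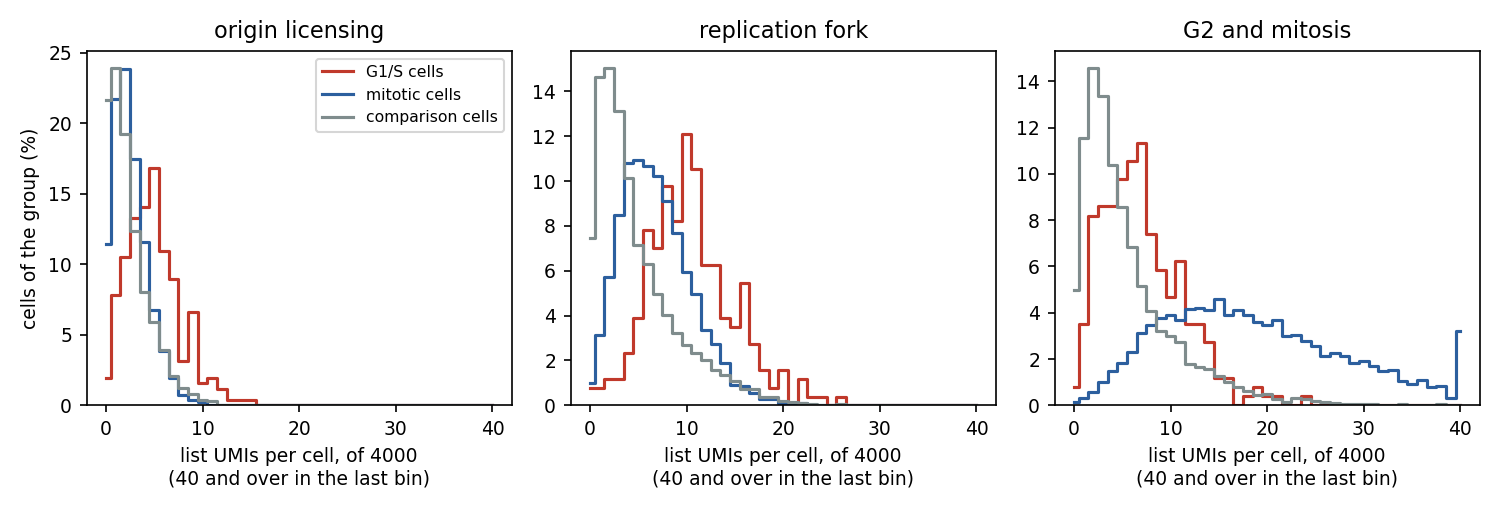
Share of cells (y axis, %) by UMIs of the licensing, fork and G2 and mitosis lists (x axis, UMIs of 4000 drawn per cell) in G1/S, mitotic and comparison cells. G1/S cells are shifted up in licensing and fork genes, at medians of 5 and 10 UMIs, while mitotic cells are shifted up in G2 and mitosis genes, at a median of 17 UMIs.

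Promoters of the genes that set the cells apart are shown because E2F sites are where the G1/S switch acts. Each is the RefSeq window from 250 bases before to 50 bases after the gene start in GRCm38.p6, written 5′ to 3′ on the gene's strand, with E2F motifs in capitals. The motifs searched were TTTGGCGC, TTTCGCGC, TTTCCCGC and TTTGCCGC on both strands, some of which overlap each other. Shown are the 3 rule genes of the cyclin, licensing and nucleotide roles that have an entry and the 2 licensing genes with the largest ratio; Ccne2 is named only.
Cdc6: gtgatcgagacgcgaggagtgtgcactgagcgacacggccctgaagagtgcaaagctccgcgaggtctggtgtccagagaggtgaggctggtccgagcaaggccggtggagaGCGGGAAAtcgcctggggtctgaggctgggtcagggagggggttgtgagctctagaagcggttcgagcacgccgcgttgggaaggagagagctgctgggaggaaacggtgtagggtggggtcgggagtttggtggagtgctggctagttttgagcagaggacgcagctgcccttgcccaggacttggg
Mcm5: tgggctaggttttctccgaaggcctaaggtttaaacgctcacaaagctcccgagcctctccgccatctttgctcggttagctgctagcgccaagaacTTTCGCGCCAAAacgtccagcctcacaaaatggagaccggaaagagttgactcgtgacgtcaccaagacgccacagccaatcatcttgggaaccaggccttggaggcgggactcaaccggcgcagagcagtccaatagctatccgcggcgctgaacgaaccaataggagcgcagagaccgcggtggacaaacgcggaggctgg
Ccne1: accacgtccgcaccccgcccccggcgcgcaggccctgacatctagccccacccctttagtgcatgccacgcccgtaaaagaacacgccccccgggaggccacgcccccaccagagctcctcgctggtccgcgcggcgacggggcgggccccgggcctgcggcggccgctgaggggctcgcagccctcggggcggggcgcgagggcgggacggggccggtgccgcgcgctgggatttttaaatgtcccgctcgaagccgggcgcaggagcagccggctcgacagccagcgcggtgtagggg
Rrm2: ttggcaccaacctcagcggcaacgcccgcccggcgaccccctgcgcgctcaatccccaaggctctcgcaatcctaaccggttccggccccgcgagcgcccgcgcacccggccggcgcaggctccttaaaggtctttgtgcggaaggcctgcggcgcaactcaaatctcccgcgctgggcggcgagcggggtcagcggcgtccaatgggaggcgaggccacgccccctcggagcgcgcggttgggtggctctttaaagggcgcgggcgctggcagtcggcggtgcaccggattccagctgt
Mcm10: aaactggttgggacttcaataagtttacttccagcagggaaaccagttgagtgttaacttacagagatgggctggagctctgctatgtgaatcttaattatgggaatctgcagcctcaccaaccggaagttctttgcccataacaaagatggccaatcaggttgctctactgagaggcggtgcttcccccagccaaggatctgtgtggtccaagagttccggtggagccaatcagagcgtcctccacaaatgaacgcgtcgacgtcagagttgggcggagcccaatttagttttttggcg
The Cdc6 window (chr11:98907901-98908200, plus strand) held 1 motif, 138 bases before the start. The Mcm5 window (chr8:75109259-75109558, plus strand) held 2 that overlap, 153 and 149 bases before the start. The windows of Ccne1 (chr7:38107441-38107740, minus strand), Rrm2 (chr12:24708004-24708303, plus strand) and Mcm10 (chr2:5012742-5013041, minus strand) held none of these exact letters, which says nothing of whether E2F factors bind there.

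Over the called genes the motif was more frequent where G1/S cells were higher. The shares below were not split by the 20 CPM limit. In G1/S cells alone 134 of the 287 higher genes reached it, and in comparison cells alone 42 of the 85 lower ones. The cells were chosen by G1/S genes, so the shares are not independent of the rule. A gene counts here when any of its windows holds the motif. It stood in 52 of 234 genes with a window that were higher than in comparison cells (22.22%) and in 0 of 71 lower ones, against 237 of 4418 genes compared (5.364%) and 704 of 27025 genes in the table (2.605%). Among origin licensing genes it stood in 8 of 14 with a window (57.14%), and among the 15 named genes with the largest ratios in 8 of 13, namely Dtl, Clspn, Mcm5, Uhrf1, Hells, Lig1, Pclaf and Mcm6. The windows around the motif in the helicase gene Mcm6, an origin recognition gene (Orc1) and a chromatin remodeller (Hells) show the letters in place; these 3 genes were chosen after their values were seen.
Mcm6: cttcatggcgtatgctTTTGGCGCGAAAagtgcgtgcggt
Orc1: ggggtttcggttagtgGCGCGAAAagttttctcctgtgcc
Hells: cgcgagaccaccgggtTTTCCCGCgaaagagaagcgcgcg
These are chr1:128359792-128359831 on the minus strand, chr4:108579411-108579450 on the plus strand and chr19:38930912-38930951 on the plus strand, all in GRCm38.p6. The Mcm6 stretch holds 2 motifs that overlap by 4 bases, written as TTTGGCGC and GCGCGAAA.

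Genes lower in G1/S cells than in mitotic cells held a different motif. The CHR letters TTTGAA and TTTAAA, on both strands, stood in 59 of 97 of those genes with a window (60.82%), against 1018 of 4517 genes compared between G1/S and mitotic cells (22.54%), 30.57% of genes in the table and 26.07% of genes higher in G1/S cells than in comparison cells. Of the 10 named genes furthest below mitotic cells, 7 held it, and 0 of 10 held the E2F motif. The stretches below show it, in capitals, in the genes of cyclin B1 and cyclin B2, which were chosen after their values were seen.
Ccnb1: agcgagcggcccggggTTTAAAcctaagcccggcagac
Ccnb2: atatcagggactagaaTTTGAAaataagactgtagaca
These are chr13:100786507-100786544 and chr9:70421700-70421737, both on the minus strand. Of the 127 genes lower than in mitotic cells, 73 reached 20 CPM in mitotic cells alone, and the CHR share was not split by this. Nor is that share independent of the second sum, which set the mitotic cells apart. Motif matches are a description of letters, and no binding was measured.

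**Figure D5:**
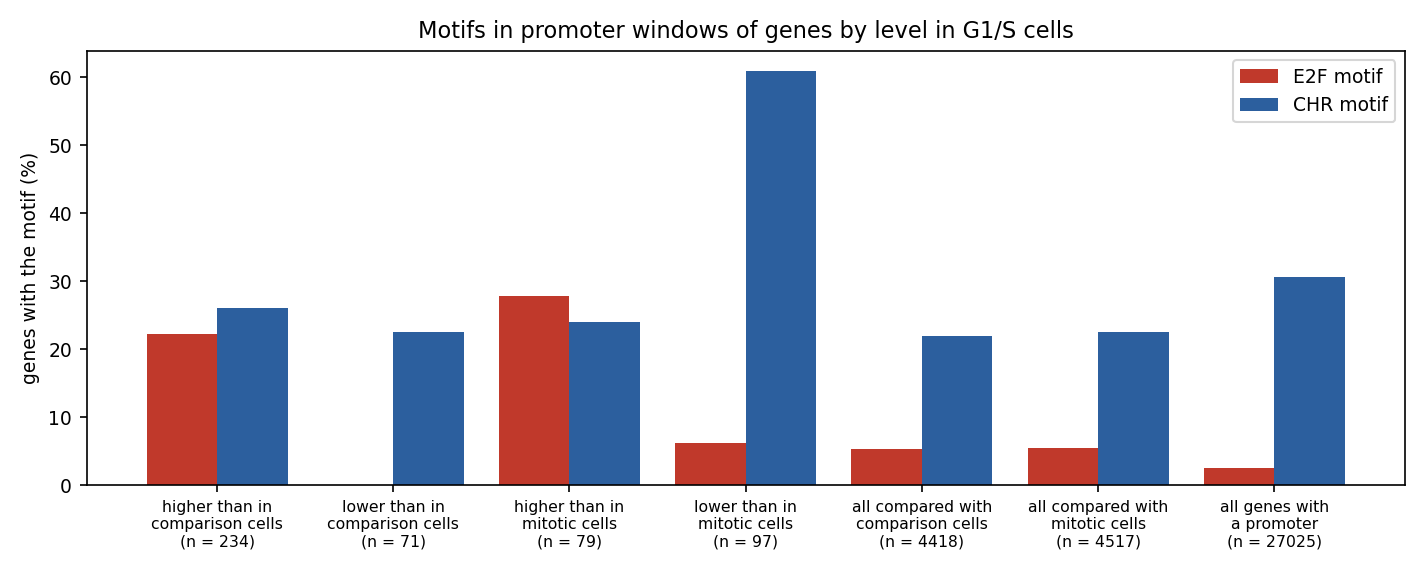
Share of genes (y axis, %) whose promoter window holds an E2F motif (red) or a CHR motif (blue), for genes higher or lower in G1/S cells than in comparison or mitotic cells, all genes of each comparison and all genes in the table, with n the genes that have a window. The E2F share is 22.22% in genes higher than in comparison cells and 0% in genes lower, and the CHR share is 60.82% in genes lower than in mitotic cells.

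The genes lower in G1/S cells than in comparison cells included markers of other cells in the library. Ccer2 stood at 9.341 CPM in G1/S cells, 11.9 CPM in mitotic cells and 75.09 CPM in comparison cells, and Pcp4, a calmodulin-binding protein of hair cells, at 8.303, 15.52 and 54.95 CPM in the same order. In the 259 hair cell-like cells these genes reached 2335 and 1568 CPM, and such cells were 0.7812% of G1/S cells, 0.8939% of mitotic cells and 1.972% of comparison cells. Pcp4 is one of the genes that define these cells, so its level in them and its change without them are partly set by the definition. Without them in either group the log2 ratios were -0.45 for Ccer2 and -0.58 for Pcp4, inside the 1.5-fold limit, and the counts over all genes were 281 higher and 77 lower. The hair cell list summed to 138 CPM in G1/S cells, 153.8 CPM in mitotic cells and 267.9 CPM in comparison cells, with 2 of 5 compared genes lower, and its defining factor Pou4f3 stood at 1.73 CPM in G1/S cells, 1.704 CPM in mitotic cells and 7 CPM in comparison cells. Of this list, Myo6 had a log2 ratio of -0.85 to comparison cells. Without hair cell-like cells it was -0.52, inside the 1.5-fold limit as for Pcp4.

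A further set of lower genes was high in mesenchyme-like cells, 2210 Epcam-negative cells with a median of 5250 UMIs. Apoe, a lipid carrier, stood at 64.69 CPM in G1/S cells, 99.24 CPM in mitotic cells and 153.2 CPM in comparison cells, and at 1301 CPM in mesenchyme-like cells. Emcn, a sialomucin, stood at 26.29, 44.47 and 63.61 CPM in the same order and at 564 CPM in mesenchyme-like cells, where Ifitm1 reached 590.7 CPM and Igfbp2 853 CPM. With comparison cells weighted to the depth of the G1/S cells the log2 ratios were -0.77 for Apoe, -0.79 for Emcn, -0.66 for Igfbp2 and -0.57 for Ifitm1, the last within 1.5-fold. With membership decided on thinned counts none of these 4 was past the limit, at -0.29, -0.05, -0.30 and 0.14 in the same order. The mesenchyme list as a whole summed to 1329 CPM in G1/S cells, 1301 CPM in mitotic cells and 1410 CPM in comparison cells, with 1 of 5 compared genes lower. That gene, Otor, was within 1.5-fold under the depth weighting (-0.43). The part that RNA of such cells has in these differences was not tested. Under the depth weighting Btg2 kept a log2 ratio of -1.33 and Cdkn1c of -0.94, and Mcm5 of 1.60.

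Most epithelial genes were within 1.5-fold between G1/S and comparison cells, although their share of lower calls was above the 1.53% over all genes. Of 11 compared epithelial genes 0 were higher and 2 lower, the keratins Krt8 and Krt18, with Krt18 at 33.9 CPM in G1/S cells, 30.78 CPM in mitotic cells and 69.6 CPM in comparison cells. Wnt target genes had 0 of 12 higher or lower, with a median log2 ratio of 0.04. All these cells were grown with CHIR99021, so a response of these genes to it was not tested. Lgr5, the receptor the progenitors were chosen by, stood at 48.78 CPM in G1/S cells, 56.2 CPM in mitotic cells and 47.58 CPM in comparison cells, and Axin2 at 115.5, 128.3 and 111.2 CPM in the same order. After thinning, Lgr5 was found in 11.72% of G1/S cells (8.048 to 16.31), 17.16% of mitotic cells, 14.61% of comparison cells and 0.9955% of mesenchyme-like cells. Otic and prosensory factors had 0 of 12 higher or lower, with Sox9 at 214.8 CPM in G1/S cells, 218.2 CPM in mitotic cells and 222.2 CPM in comparison cells, and Gata3 at 69.88, 92.72 and 68.65 CPM in the same order. Notch genes (0 of 4) and FGF and ERK targets (1 of 10 lower, Ier3) differed as little. The supporting cell list had 1 of 4 lower (Slc1a3), the ridge and tectorial matrix list 2 of 13 (Otog and Otor), the list of glia, neurons and melanocytes 0 of 2, and of the endothelium, blood and immune list Emcn alone was measured. Slc1a3 and Otor were within 1.5-fold under depth weighting, at -0.55 and -0.43. With thinned membership they stood at -0.19 and 0.04, so Otor reversed, and Slc1a3 reversed with at least 8 UMIs (0.32).

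Glycolysis and hypoxia genes had 3 of 18 lower and 0 higher, with a median log2 ratio of -0.36, and summed to 7508 CPM in G1/S cells, 8098 CPM in mitotic cells and 9107 CPM in comparison cells. Those lower were the HIF targets Pdk1, Bnip3 and Car9, with Bnip3 at 79.92 CPM in G1/S cells, 117.6 CPM in mitotic cells and 137.2 CPM in comparison cells. Immediate early and stress genes had 3 of 17 lower (Fos, Atf3 and Ier3), with Fos at 131.1 CPM in G1/S cells, 167.8 CPM in mitotic cells and 207.2 CPM in comparison cells. Ribosome biogenesis genes had 7 of 24 higher and 0 lower, with a median of 0.32 and Nolc1 at 65.04 CPM in G1/S cells, 48.58 CPM in mitotic cells and 38.63 CPM in comparison cells. The cholesterol and oxidative phosphorylation lists had 0 of 23 and 0 of 24 called, and the 84 compared ribosomal protein genes 0. Nuclear transport genes and chaperones had 2 of 21 higher (Cse1l and Nup155) and 0 lower. Over all genes compared 5.18% were higher and 1.53% lower, and the list counts here and in the paragraph before are small.

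Genes that mark other subsets of the organoid were mostly lower in G1/S cells or alike. Prss56 stood at 250.1 CPM in G1/S cells, 255.7 CPM in mitotic cells and 383.2 CPM in comparison cells, and Bpifb5 at 55.35, 59.06 and 109.9 CPM in the same order. Car9 was found after thinning in 3.516% of G1/S cells (1.62 to 6.569), 6.14% of mitotic cells and 7.673% of comparison cells. Otog, a component of the membranes above the sensory cells, stood at 34.6 CPM in G1/S cells, 50.08 CPM in mitotic cells and 67.15 CPM in comparison cells. Ret, the GDNF receptor, stood at 198.2 CPM in G1/S cells, 216 CPM in mitotic cells and 148.1 CPM in comparison cells, within 1.5-fold. For Prss56, Bpifb5, Otog and Krt18 the G1/S cells stood nearer to mitotic cells than to comparison cells.

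The cells differed among themselves in which rule genes led. Ccne1 and Ccne2 together exceeded Rrm2 in 146 cells, Rrm2 exceeded them in 65, 45 were tied, and 40 of the 146 and 34 of the 65 lay within 1 UMI of the split. The split used genes of the rule, and both sets had similar depth, with medians of 9285 UMIs in Rrm2-led cells and 9675.5 in Ccne-led cells. Their other S phase genes differed little: licensing genes summed to 1123 CPM in Rrm2-led cells and 1151 CPM in Ccne-led cells, and fork genes to 2531 and 2291 CPM in the same order. Of 26 compared genes of G2 and mitosis, 5 were higher and 1 lower in Rrm2-led cells, with a median log2 ratio of 0.16. These calls rest on few UMIs, as for Prc1 with 29 UMIs in Rrm2-led cells and 41 in Ccne-led cells. The lower one was Ccnb1, at 11.16 CPM in Rrm2-led cells (8 UMIs) and 38.14 CPM in Ccne-led cells (64 UMIs), and it ran against its list. Over all 5709 compared genes 296 were higher and 264 lower, from small numbers of UMIs.

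Summed licensing and fork genes were higher in cells with more UMIs of the first sum, although single genes were uneven. Licensing genes summed to 373.6 CPM in the 4586 comparison cells with a first sum of 0, 746.8 CPM in the 2869 with 1 to 4, and 1073, 1197 and 1240 CPM in G1/S cells with 5, 6 and at least 7 UMIs. Fork genes ran 777, 1609, 2264, 2479 and 2503 CPM over the same steps. The steps were cut on the first sum, made of genes of the same phase, so neither order is independent of the rule. Depth moved as well, with medians of 5913.5, 7280, 9675.5, 8433 and 10411 UMIs a cell over these steps. Genes of G2 and mitosis stood at 1132, 1519, 1655, 1600 and 1756 CPM, with no such order among the G1/S cells. Among G1/S cells with 5, 6 and at least 7 UMIs, Mcm2 ran 74.48, 85.53 and 105.8 CPM, while Pcna ran 116.3, 106.3 and 125.5 CPM and Tyms 128.4, 143.8 and 122.7 CPM. By the second sum, the 63 G1/S cells with 0 UMIs held 1275 CPM of licensing and 1387 CPM of G2 and mitosis genes, and the 193 with 1 to 3 held 1118 and 1729 CPM.

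The same rule found few cells in the differentiating organoids. G1/S cells were 1.761% of eligible cells in expansion (256 of 14535), 0.09908% on day 5 (7 of 7065, exact 95% interval 0.03984 to 0.204) and 0.02153% on day 25 (1 of 4645, 0.0005451 to 0.1199). Mitotic cells were 46.95%, 0.6228% and 0.3014% in the same order. The 7 cells of day 5 held 132011 UMIs, with licensing genes at 1083 CPM, near the 1147 CPM of expansion. Mesenchyme genes stood at 8590 CPM in them, against 1329 CPM in expansion and 3419 CPM in the day 5 cells outside both sums. Of the 7 cells 1 was a called doublet. The 1 cell of day 25 was a called doublet with 33761 UMIs and hair cell genes at 16910 CPM, against 5573 CPM in the day 25 cells outside both sums. Over all eligible cells licensing genes summed to 593.7 CPM in expansion, 165.3 CPM on day 5 and 204.6 CPM on day 25, and CDK inhibitors and p53 targets to 816.9, 2072 and 2703 CPM in the same order. Mcm5 stood at 2.545 CPM over the eligible cells of day 5 and 0.6852 CPM over those of day 25, both below the 36.2 CPM of the expansion comparison cells.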

How the data were processed

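The deposited matrices held raw UMI counts per gene and barcode for the 3 libraries, made by the authors from 10x Genomics Single Cell 3' v3 libraries with Cell Ranger; per the file headers, day 25 was run with 3.1.0 and the others with 3.0.1. GRCm38 and hg38 are named as builds, per the submitters' processing notes, with no role, and how cells were called is not given in the sources used here. The gene table held 31053 mouse IDs, of which 31011 were matched to a position in GRCm38.

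Barcodes with at least 500 genes and at most 20% mitochondrial UMIs were kept. UMIs were summed over the cells of a group and scaled to CPM over all genes; the ratio of CPM + 1 was called from 1.5-fold among genes of at least 20 CPM in either group. List medians were taken over genes of at least 5 CPM in either group. Called doublets stayed in and were left out as an alternative; they were scored against 2 simulated doublets a barcode (1500 variable genes, 30 components, 0.8% expected per 1000 barcodes). Hair cell-like cells held at least 5 UMIs of Pou4f3, Otof, Acbd7, Pcp4 and Gfi1 together, and mesenchyme-like cells no Epcam UMI and at least 5 UMIs of Otor, Col1a2, Col3a1 and Pou3f4 together. Cells were thinned by drawing 4000 UMIs without replacement. Membership on thinned counts used limits of 3 UMIs for the first sum and 2 for the second. Shares have exact Clopper-Pearson 95% intervals and sums exact Poisson ones; both cover counting error only. With 1 library a group no test was run. The calling rule was also run on simulated pooled Poisson counts with raised genes. These held no spread among cells and no choice of cells by the rule, so they cannot show the effect of either. Named genes were the rule genes, the 15 largest ratios in each direction against comparison cells and the 10 largest in each direction against mitotic cells (at least 50 CPM), members of the licensing, E2F and cyclin lists, the 4 largest of each other list and the subset markers, of which the text gives a part; other list genes it names were chosen after their values were seen. The members and the gene lists were chosen with earlier results of these data known. Python 3.11.15, numpy 2.4.6, scipy 1.17.1 and, for TMM factors only, edgeR 4.0.16 were used.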

Additional observations from a re-analysis of the deposited data

How the results depend on the processing

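No paired analysis was possible because each group was 1 library and no test was run. Against comparison cells, with 287 genes higher and 85 lower, a filter of 1 CPM gave 803 higher and 882 lower of 12739, a 2-fold limit 78 and 14, membership by thinned counts 337 and 191, at least 8 UMIs of the first sum (25 cells) 1010 and 580, comparison cells with at most 1 and 0 UMIs of the sums (2712 cells) 548 and 170, and weighting by depth 328 and 136. Higher genes were 77.15% of those called, 47.66% with the 1 CPM filter, 63.83% with thinned membership, and 63.52% with at least 8 UMIs. Under TMM scaling 238 were higher and 106 lower, and without called doublets 342 and 119. Against mitotic cells, with 93 higher and 127 lower, the 1 CPM filter gave 437 and 746 and the 2-fold limit 24 and 65. The other alternatives stayed within 1.5 times of these counts.

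Thinned membership gave 314 cells, of which 113 were among the 256, and put the shares at 2.16% in expansion, 0.02831% on day 5 and 0% on day 25, where leaving out called doublets also gave 0%. It turned the log2 ratios of Ifitm1 to 0.14 and Otor to 0.038 and took those of Apoe to -0.29 and Emcn to -0.05. With at least 8 UMIs those of Mki67 (-0.28), Nop2 (-0.080), Slc1a3 (0.32) and Tacc3 (-0.24) turned. Of gene values under an alternative against comparison cells, 4148 kept their direction and their side of the fold limit in use. A further 152 lost that limit, 146 gained it and 6 turned. Against mitotic cells these counts were 3403, 62, 45 and 0. The 2-fold limit and the 1 CPM filter left each ratio as it was. The 2-fold limit alone gave 80 of the 152 losses and 46 of the 62. The 1 CPM filter gave 371 of the 4148 kept values and 390 of the 3403. The causes of the changes were not tested. Depth limits the low genes: Atf3, at 12.45 CPM in G1/S cells, rests on 36 UMIs.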
